A study of Danio rerio with 14 samples.

Results

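The AP-1 transcription factors described here are 10 zebrafish genes taken by symbol, namely the Fos family genes *fosab*, *fosb*, *fosl1a* and *fosl2*, the Jun family genes *jun*, *junba*, *junbb* and *jund*, and the related genes *atf3* and *batf3*. All 10 symbols matched an Ensembl identifier of the count tables, which hold 32520 genes, and all 10 had enough counts to be tested at both time points. The libraries are bulk RNA-seq of pooled uninjured hearts of adult zebrafish. *il11a*OE fish carry *actb2:loxp-BFP-stop-loxp-il11a* and *cmlc2:creER*, so that CreER, made from the cardiomyocyte promoter *cmlc2*, removes a stop cassette under tamoxifen and lets the *actb2* promoter drive the cytokine gene *il11a*. Control fish were littermates that carry the same *il11a* cassette and lack *cmlc2:creER*, and fish of both groups were bathed in 5 µM tamoxifen for 24 h. Hearts were taken 7 days post treatment (dpt), with 3 *il11a*OE and 3 control libraries, or 7 months post treatment (mpt), with 4 *il11a*OE and 4 control libraries. At 7 mpt each group holds 2 libraries labelled F and 2 labelled M, letters that the sources used here do not define.

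AP-1 is a dimer of basic leucine zipper proteins. Jun proteins pair with themselves, with Fos proteins, or with ATF and BATF proteins, and the partner sets the DNA site and the strength of activation. Many of these genes are immediate early genes, transcribed within minutes of growth factor, cytokine or stress signals without new protein synthesis. In zebrafish hearts and fins, AP-1 factors are known for their part in opening chromatin during regeneration. In mammals c-Fos and FosB have strong activation domains, FOSL1 and FOSL2 lack such a domain, c-Jun is a strong activator, and JUNB and JUND are weaker partners that can restrain it.

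Between 61691132 and 80703699 read pairs per library were counted on genes at 7 dpt, and between 73275884 and 130058630 reads at 7 mpt, where each mate of a pair was counted, so levels are compared within a time point only. The induced gene *il11a* stood at 325 to 385 CPM (counts scaled to a common library size) in *il11a*OE against 41.5 to 53.7 CPM in control at 7 dpt, and at 262 to 433 CPM in *il11a*OE against 41.0 to 90.5 CPM in control at 7 mpt. Cardiomyocyte markers were abundant in every library, with a summed level of at least 19230 CPM over the 8 markers matched. The groups were set against each other with the quasi-likelihood test of edgeR, and a gene was called at a Benjamini-Hochberg adjusted p under 0.05 over all genes tested. Nothing in the labels says more about the pools than that they are separate samples, and the paper's methods call them biological replicates. The p-values set each difference between the groups against the spread between these libraries. In bulk hearts, fewer cells of a type and less RNA per cell cannot be told apart.

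At 7 dpt the AP-1 genes moved in both directions. The genes *fosl1a*, *fosl2*, *junba* and *junbb* rose in *il11a*OE hearts, *fosb*, *jund* and *atf3* fell, and *fosab*, *jun* and *batf3* were not called. Thus 4 of 10 members were higher, where 20.2% of all genes tested were called higher, and 3 of 10 were lower, where 17.1% were called lower. The members were chosen with earlier results of these data known, so such shares are a description only. In 8 of 10 members the libraries of the groups did not overlap, which was also true of 52.6% of all genes tested. The median log2 fold change was 1.04 over the members and 0.02 over all genes. Leaving out *batf3*, which had enough counts in *il11a*OE only, 7 of 9 did not overlap and the median was 0.79. The per-library plot for 7 dpt shows these values.

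**Figure D1:**
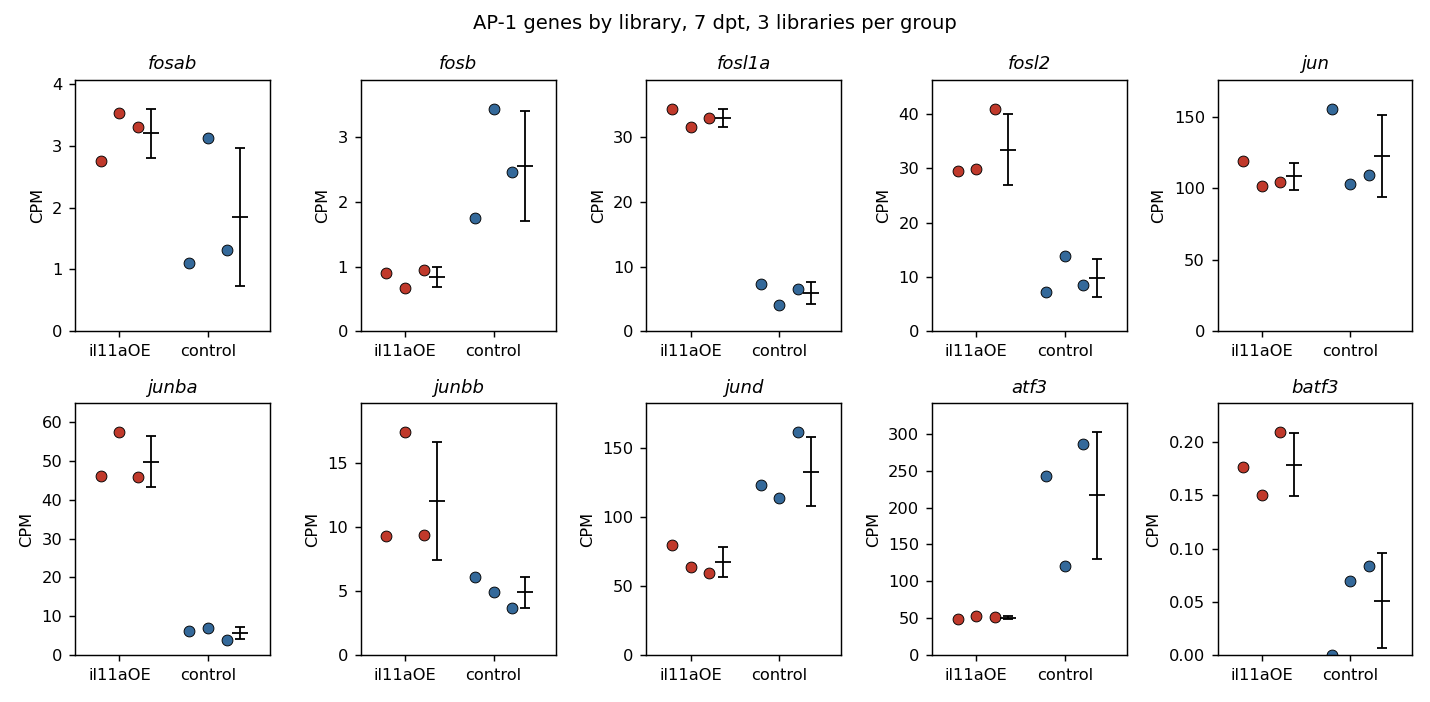
CPM of each AP-1 gene in each library at 7 dpt, with 3 *il11a*OE libraries (red, left) and 3 control libraries (blue, right) and the mean ± SD beside them. Each panel has its own linear axis from 0; *junba* lay between 45.8 and 57.4 CPM in *il11a*OE and between 3.95 and 6.88 CPM in control, and *atf3* between 48.7 and 52.6 CPM in *il11a*OE and between 121 and 286 CPM in control.

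Among the Fos genes, *fosl1a* (ENSDARG00000015355, chromosome 14 from 30739476 to 30747686 on GRCz11), a zebrafish counterpart of mammalian FOSL1 (Fra-1), had 34.4, 31.6 and 33.0 CPM in the *il11a*OE libraries, against 7.34, 4.05 and 6.46 CPM in the control libraries. All *il11a*OE values lay within 1.09-fold of each other and far above control. The gene rose by 2.47 on a log2 scale (standard error, SE, 0.22, 5.54-fold, edgeR adjusted p = 0.000486). Of its 4005 exon bases, 129 overlap a 5S rRNA gene of the opposite strand, and reads that overlap more than 1 gene were not counted. *fosl2* (ENSDARG00000040623, chromosome 17 from 41302660 to 41318547), the counterpart of FOSL2 (Fra-2), had 29.5, 29.9 and 41.0 CPM in *il11a*OE, against 7.29, 13.8 and 8.46 CPM in control. The groups did not overlap, and the log2 fold change was 1.76 (SE 0.27, edgeR adjusted p = 0.00390).

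The genes that encode the stronger activators of the Fos family were scarce at 7 dpt. *fosb* (ENSDARG00000055751, chromosome 18 from 36769758 to 36774965) had 0.907, 0.662 and 0.948 CPM in *il11a*OE, against 1.74, 3.44 and 2.47 CPM in control. Every *il11a*OE library was below every control library, and the gene fell by 1.60 on a log2 scale (SE 0.30, 3.03-fold, edgeR adjusted p = 0.00723). *fosab* (ENSDARG00000031683, chromosome 20 from 46552311 to 46554440), the counterpart of c-Fos, had 2.76, 3.54 and 3.31 CPM in *il11a*OE, against 1.1, 3.13 and 1.32 CPM in control. One control library lay within the *il11a*OE range, and the log2 fold change was 0.79 (SE 0.40, edgeR adjusted p = 0.172). Without that control library, replicate 2, it was 1.40 with an edgeR adjusted p of 0.00565. For *fosab* 455 of 1699 exon bases overlap a gene on the opposite strand, which lowers its counts under this counting.

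In the Jun family, the counterparts of JUNB rose at 7 dpt and *jund* fell. *junba* (ENSDARG00000074378, chromosome 1 from 51732979 to 51734535) had 46.1, 57.4 and 45.8 CPM in *il11a*OE, against 6.11, 6.88 and 3.95 CPM in control. No other AP-1 gene of the 10 had a larger log2 fold change at this time, at 3.14 (SE 0.23, 8.80-fold, edgeR adjusted p = 0.0002545), and its p ranked 377 among the 19647 genes tested. Its paralog *junbb* (ENSDARG00000104773, chromosome 3 from 7654655 to 7656059) had 9.33, 17.4 and 9.40 CPM in *il11a*OE, against 6.11, 4.93 and 3.65 CPM in control, with a log2 fold change of 1.30 (SE 0.31, edgeR adjusted p = 0.0188). The groups of *junbb* stood close to each other, and the edgeR adjusted p was 0.0521 without control replicate 2 and 0.0567 without control replicate 3. Reads mapping to several places were not counted, and how much sequence the paralogs share was not analysed here.

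*jund* (ENSDARG00000067850, chromosome 2 from 56125174 to 56131312), whose mammalian counterpart is expressed in most resting cells, had 79.2, 63.2 and 59.0 CPM in *il11a*OE, against 123, 114 and 161 CPM in control. It fell by 0.98 on a log2 scale (SE 0.17, edgeR adjusted p = 0.00533), with no overlap between the groups. *jun* (ENSDARG00000043531, chromosome 20 from 15552657 to 15554606), the c-Jun gene, had 119, 101 and 105 CPM in *il11a*OE, against 156, 103 and 109 CPM in control. These groups overlapped, with a log2 fold change of -0.18 and a 95% interval from -0.58 to 0.22 (edgeR adjusted p = 0.441), so a change beyond 0.58 in size lay outside the interval. *jun* thus stayed among the abundant members in both groups.

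*atf3* and *batf3* are neighbours on chromosome 20, 11961 bases apart and on opposite strands. *atf3* (ENSDARG00000007823, from 37794633 to 37800737) encodes a stress-induced factor that in mammals often represses its targets. It had 48.7, 52.6 and 50.9 CPM in *il11a*OE, against 243, 121 and 286 CPM in control. The *il11a*OE libraries lay within 1.08-fold of each other while the control libraries differed by up to 2.37-fold, and every control library was higher. *atf3* fell by 2.09 on a log2 scale (SE 0.31, 4.27-fold, edgeR adjusted p = 0.00337). *batf3* (ENSDARG00000042577, from 37812699 to 37813863), whose mammalian counterpart is needed by a class of dendritic cells, was near the detection limit with 16, 10 and 19 read pairs in *il11a*OE, against 0, 4 and 5 in control. It passed the filter on low counts only through the *il11a*OE libraries, so the lack of overlap carries little, and it was not called (log2 fold change 1.81, edgeR adjusted p = 0.114).

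The 3 lower calls at 7 dpt were kept in each of the 6 edgeR fits that left out 1 library, and were lost in a joint fit. When all 14 libraries shared one edgeR fit, the filter, the scaling and the spread were shared too, and their separate parts were not tested. In that fit the 4 higher genes were called. *fosb*, *jund* and *atf3* were not, at edgeR adjusted p of 0.421, 0.214 and 0.233. Their log2 fold changes remained between -1.64 and -1.56, -1.02 and -0.96, and -2.13 and -2.01 over the 6 alternatives that used all libraries of 7 dpt.

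At 7 mpt the calls among AP-1 genes were all in one direction. *fosab*, *fosl1a*, *fosl2*, *junba* and *junbb* rose, 5 of 10 members where 14.2% of all genes tested were called higher, and 0 of 10 fell where 12.2% were called lower. As at 7 dpt, these shares of members are a description only. No member was lower at an unadjusted p under 0.05 in edgeR, and DESeq2 called 0 lower too. The groups did not overlap in the same 5 genes, against 30.8% of all genes. The median log2 fold change was 1.36 over the members and 0.03 over all genes, and 2.03 over the 8 members left without *fosb* and *batf3*, which had enough counts in every library of *il11a*OE only. Libraries differed more from each other than at 7 dpt, with a median biological coefficient of variation over all genes of 0.343 at 7 mpt and 0.211 at 7 dpt.

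**Figure D2:**
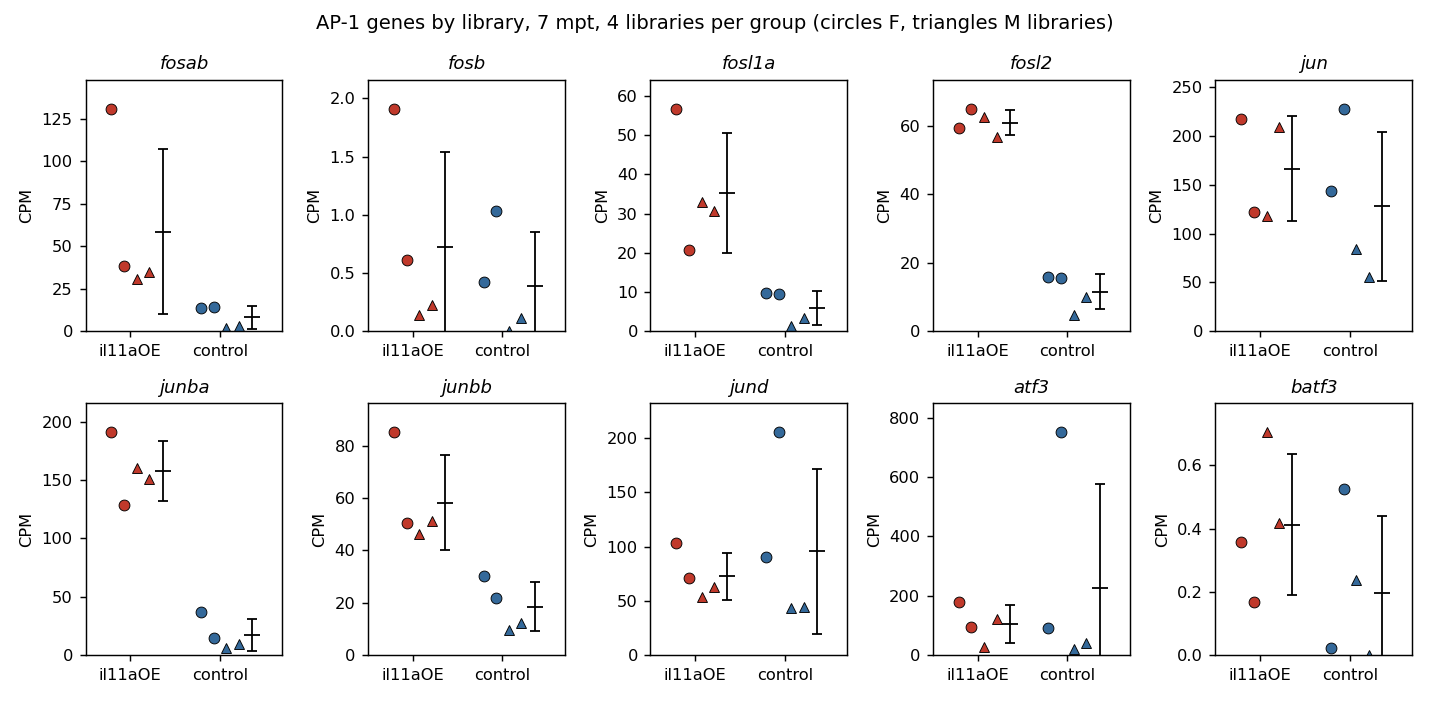
CPM of each AP-1 gene in each library at 7 mpt, with 4 *il11a*OE libraries (red, left) and 4 control libraries (blue, right), circles for F and triangles for M libraries, and the mean ± SD beside them. Each panel has its own linear axis from 0; *fosl2* lay between 56.7 and 65.0 CPM in *il11a*OE and between 4.81 and 15.8 CPM in control, and a single control library held 751 CPM of *atf3*.

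At 7 mpt *fosab*, *fosl1a* and *fosl2* were higher in every *il11a*OE library than in any control library, and *fosb* was not. *fosl2* had 59.4, 65.0, 62.6 and 56.7 CPM in *il11a*OE replicates 1 to 4 (F, F, M, M), against 15.8, 15.4, 4.81 and 10.1 CPM in the control replicates in the same order of letters. The *il11a*OE libraries were nearly level, within 1.15-fold, and the log2 fold change was 2.40 (SE 0.33, 5.28-fold, edgeR adjusted p = 0.000733). *fosl1a* had 56.8, 20.6, 32.9 and 30.7 CPM in *il11a*OE, against 9.73, 9.48, 1.31 and 3.37 CPM in control. The lowest *il11a*OE library was above the highest control library, and the log2 fold change was 2.56 (SE 0.61, edgeR adjusted p = 0.0139). *fosab* had 131, 38.4, 30.6 and 34.7 CPM in *il11a*OE, against 13.8, 14.04, 1.99 and 2.80 CPM in control. Its first *il11a*OE library stood apart from the other 3, yet each of the 4 was above every control library (log2 fold change 2.84, SE 0.77, edgeR adjusted p = 0.0252).

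The *fosab* call at 7 mpt was the least stable of the 5. Its adjusted p was as high as 0.0632 in the 8 edgeR fits that left out 1 library, missing 0.05 without *il11a*OE replicate 1, the library with 131 CPM, and without control replicate 4. *fosb* had 1.91, 0.611, 0.141 and 0.221 CPM in *il11a*OE, against 0.425, 1.03, 0 and 0.113 CPM in control. These groups overlapped, and the log2 fold change of 0.87 (edgeR adjusted p = 0.666) became -0.31 without *il11a*OE replicate 1. *fosb* and *batf3* passed the filter on low counts at 7 mpt only with the help of *il11a*OE libraries.

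Both JUNB counterparts rose again at 7 mpt. *junba* had 191, 129, 161 and 150 CPM in *il11a*OE, against 36.9, 14.8, 6.33 and 9.54 CPM in control. It was above control in every library by a wide margin, with the largest log2 fold change of the 10, 3.22 (SE 0.52, 9.31-fold, edgeR adjusted p = 0.00205). *junbb* had 85.1, 50.6, 46.1 and 51.3 CPM in *il11a*OE, against 30.3, 21.7, 9.63 and 12.2 CPM in control, again without overlap (log2 fold change 1.66, SE 0.37, edgeR adjusted p = 0.00933). Both calls were kept in each of the 8 edgeR fits that left out 1 library.

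*jun*, *jund* and *atf3* varied more among control hearts than between the groups at 7 mpt. *jun* had 217, 122, 118 and 209 CPM in *il11a*OE, against 144, 228, 84.0 and 56.0 CPM in control (log2 fold change 0.38, edgeR adjusted p = 0.567). *jund* had 103, 70.9, 53.7 and 62.4 CPM in *il11a*OE, against 90.03, 205, 43.2 and 43.7 CPM in control (log2 fold change -0.40, edgeR adjusted p = 0.621). *atf3* had 180, 93.1, 27.2 and 121 CPM in *il11a*OE, against 89.9, 751, 21.1 and 41.8 CPM in control (log2 fold change -1.101, edgeR adjusted p = 0.512). Control replicate 2 was the highest control library for all 3 genes, and for *atf3* it was 35.6-fold above the lowest control library. Without it the log2 fold change was 0.30 for *jund* and 1.05 for *atf3*, so neither has a settled direction at 7 mpt. *batf3* had 54, 18, 90 and 34 reads in *il11a*OE, against 2, 48, 16 and 0 in control, and was not called (log2 fold change 1.06, edgeR adjusted p = 0.561).

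The effect on each gene was then compared between the time points, over all 14 libraries. A difference was called for 0 of 10 members either way, where 2.14% of all genes had a larger effect and 2.27% a smaller effect at 7 mpt. None had an unadjusted p under 0.05, and DESeq2 also called 0 of 10. The smallest p belonged to *fosab*, whose log2 effect was larger by 2.05 at 7 mpt (95% interval from -0.15 to 4.24, edgeR adjusted p = 0.278). For *junba* the difference was 0.07, with an interval from -1.29 to 1.44, and for *fosl1a* it was 0.08, with an interval from -1.54 to 1.69. The *atf3* difference of 0.97 had an interval from -1.99 to 3.93, which includes both no difference and a large one. The fold changes at both time points are drawn side by side in the plot of effects.

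**Figure D3:**
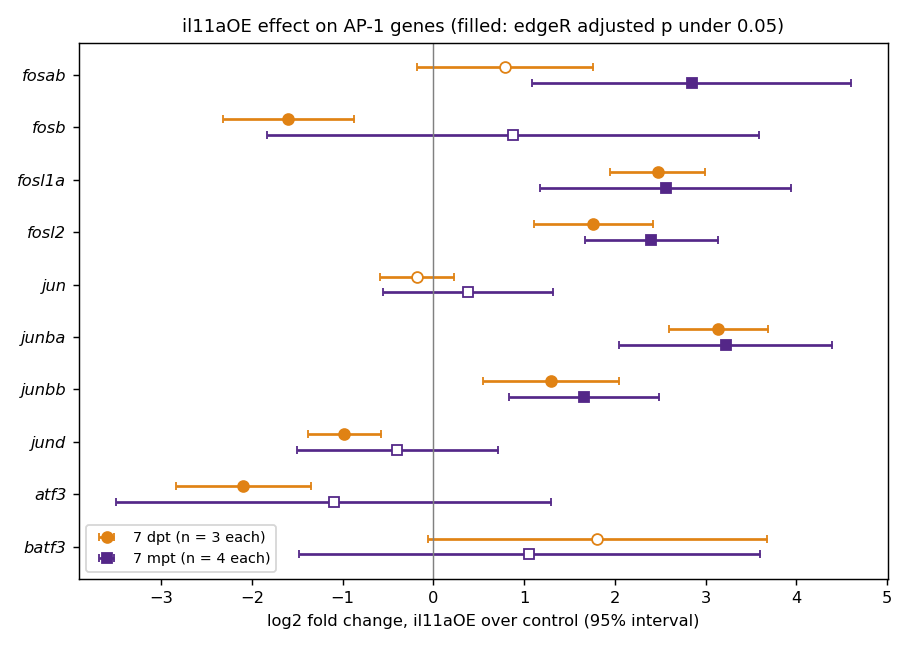
Log2 fold change of each AP-1 gene, *il11a*OE over control, at 7 dpt (orange circles, n = 3 each) and 7 mpt (purple squares, n = 4 each), with 95% intervals from the edgeR fit and filled symbols for an adjusted p under 0.05. *fosl1a*, *fosl2*, *junba* and *junbb* lie above 0 at both times, from 1.30 to 3.22, and the intervals of *fosb*, *atf3* and *batf3* are wide at 7 mpt.

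Levels of different genes can be compared per exon length, as RPKM, which divides CPM by the exon length in kilobases, with the caution that annotated exon lengths run from 716 bases for *batf3* to 6139 for *jund*. In *il11a*OE hearts at 7 dpt the order was *jun* with 55.5 ± 4.88 RPKM, *junba* with 32.0 ± 4.23 RPKM and *atf3* with 18.8 ± 0.734 RPKM, each separate from the next in all libraries. In control hearts *atf3* led with 80.2 ± 31.7 RPKM (mean ± SD, n = 3), followed by *jun* with 62.9 ± 14.7 RPKM, whose libraries overlapped those of *atf3*, and then *jund* with 21.6 ± 4.09 RPKM. *junba* was thus at rank 2 of 10 in *il11a*OE and rank 4 in control, where its level of 3.63 ± 0.976 RPKM overlapped that of *junbb*. The 4 genes that followed *atf3* in *il11a*OE, *jund*, *fosl2*, *junbb* and *fosl1a*, overlapped from each to the next between 8.24 and 10.9 RPKM.

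At 7 mpt *junba* was first in *il11a*OE with 101 ± 16.6 RPKM (n = 4), overlapping *jun* with 85.5 ± 27.6 RPKM, and *junbb* came next with 41.5 ± 12.8 RPKM. In control hearts *atf3* was first by its mean of 83.7 ± 130 RPKM, which rests on 1 library with 278 RPKM, and *jun* second with 65.6 ± 39.0 RPKM. All neighbours in the control order at 7 mpt overlapped.

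In these terms the make-up of the Jun family differed between the groups at both times, and that of the Fos family at 7 dpt. *junba* made up 29.9 ± 3.10% of the summed Jun family RPKM in *il11a*OE against 4.04 ± 1.38% in control at 7 dpt, and 42.7 ± 5.32% in *il11a*OE against 10.5 ± 5.64% in control at 7 mpt. The share of *jun* was 52.0 ± 4.74% in *il11a*OE against 68.2 ± 5.00% in control at 7 dpt, and 35.2 ± 5.70% in *il11a*OE against 62.3 ± 7.54% in control at 7 mpt. Summed over the family, Jun genes reached 107 ± 6.66 RPKM in *il11a*OE against 91.6 ± 14.8 RPKM in control at 7 dpt, with overlapping libraries, and 240 ± 53.6 RPKM in *il11a*OE against 105 ± 59.6 RPKM in control at 7 mpt. The Fos family summed to 19.6 ± 1.90 RPKM in *il11a*OE against 6.20 ± 1.48 RPKM in control at 7 dpt. Of it *fosl1a* gave 42.2 ± 4.18% in *il11a*OE against 25.8 ± 11.8% in control, without overlap. *fosl2* gave 46.6 ± 4.48% in *il11a*OE against 43.0 ± 4.63% in control, with overlapping libraries. The share of *fosb* was 1.52 ± 0.228% in *il11a*OE against 14.5 ± 2.01% in control. At 7 mpt the Fos family summed to 60.4 ± 32.0 RPKM in *il11a*OE against 9.60 ± 6.47 RPKM in control, and *fosab* held 52.1 ± 13.1% of it in *il11a*OE and 45.2 ± 11.2% in control. The share of each Fos gene overlapped between the groups at 7 mpt. These sums and shares are descriptions and were not tested.

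**Figure D4:**
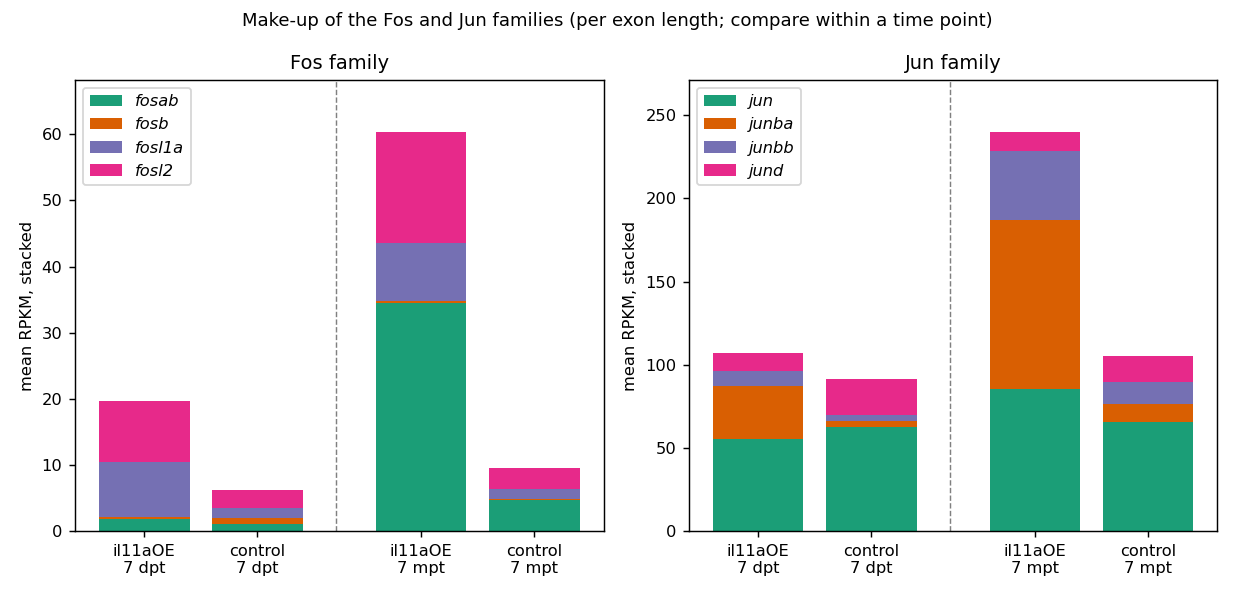
Mean RPKM of the Fos genes (left panel) and Jun genes (right panel), stacked, in *il11a*OE and control hearts at 7 dpt (3 libraries each) and 7 mpt (4 libraries each); the dashed line separates time points that were counted differently. The *junba* part of the Jun bar is 32.0 RPKM in *il11a*OE and 3.63 RPKM in control at 7 dpt, while the *jun* part is 55.5 RPKM in *il11a*OE and 62.9 RPKM in control.

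The F and M libraries of 7 mpt were compared after it was seen that control values split by letter. In 9 of 10 members both control F libraries were above both control M libraries, the exception being *batf3*, and this held for 20.2% of all genes tested. In *il11a*OE it held for 3 of 10 members, *fosab*, *fosb* and *jund*, and for 21.5% of all genes. In a model with letter as a covariate, F was higher by 1.94 on the log2 scale for *fosab* (SE 0.41) and by 0.86 for *junbb* (SE 0.23), yet 0 of 10 members were called higher in F (edgeR adjusted p of 0.177 or more), as were 0.0107% of all genes. With this covariate the 5 higher calls were kept, at adjusted p from 0.000429 to 0.00427.

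The *il11a*OE effect had a smaller value within the F libraries than within the M libraries in 10 of 10 members. *junba* was higher by 2.63 on the log2 scale within F (SE 0.44, edgeR adjusted p = 0.0109) and by 4.29 within M (SE 0.48, edgeR adjusted p = 0.00180). *fosl1a* was not called within F, with 2.01 (edgeR adjusted p = 0.0552), and was higher by 3.76 within M (edgeR adjusted p = 0.0063). For *jun*, *jund*, *atf3* and *batf3* the sign of the effect differed, for *atf3* with -1.62 within F and 1.24 within M, and none of these was called. The difference of effects between F and M was called for 0 of 10 members and 0% of all genes, and 2 members, *junba* and *jun*, were under 0.05 before adjustment. Members share these libraries, so 10 of 10 is no more than a description of 2 libraries against 2 per letter. The share of all genes with a smaller value within F was not computed. Each effect is taken against control, where F libraries were above M libraries in 9 of 10 members, so the 2 observations are not independent.

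**Figure D5:**
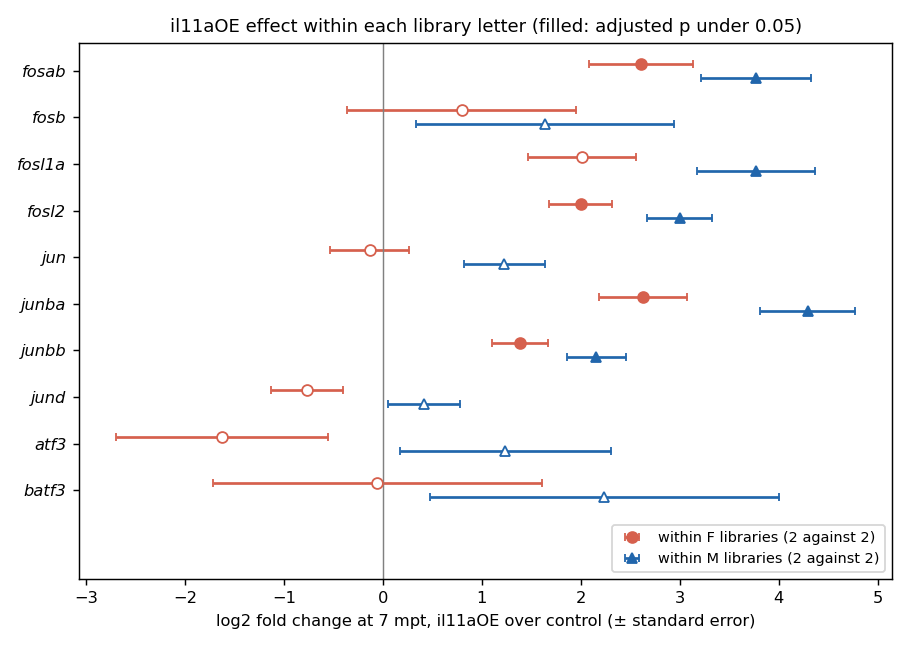
Log2 fold change at 7 mpt, *il11a*OE over control, within the F libraries (circles) and within the M libraries (triangles), each 2 libraries against 2, with SEs from one edgeR fit and filled symbols for an adjusted p under 0.05. The value within F is below that within M in each of 10 genes, as for *junba* with 2.63 within F and 4.29 within M.

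The other genes of the AP-1 pathway were read from lists compiled for this work. These lists were chosen with earlier results of these data known, so their shares below are descriptions only. Of 37 further basic leucine zipper genes tested at 7 dpt, 10 were higher and 2 lower in *il11a*OE (27.0% and 5.41%, against 20.2% and 17.1% of all genes), with a median log2 fold change of 0.29. Of 34 tested at 7 mpt, 8 were higher and 0 lower (23.5% and 0%, against 14.2% and 12.2% of all genes), with a median of 0.28. *cebpa*, which encodes a factor of myeloid and liver cells, was higher by 2.27 at 7 dpt (65.9 CPM in *il11a*OE and 13.6 CPM in control, edgeR adjusted p = 0.00130) and by 2.43 at 7 mpt (123 CPM in *il11a*OE and 22.9 CPM in control, edgeR adjusted p = 0.000176). *cebpb*, a cytokine-induced relative, was higher by 2.66 at 7 mpt (120 CPM in *il11a*OE and 19.0 CPM in control, edgeR adjusted p = 9.93e-05), and *xbp1*, which acts in the response to unfolded protein, by 0.93 at 7 dpt (edgeR adjusted p = 0.000613). The lower genes at 7 dpt were *atf4b* with -0.87 (edgeR adjusted p = 0.0251) and *atf5a* with -1.12 (edgeR adjusted p = 0.0474), both of the stress-response ATF group. Among the closest relatives, named here after their values were seen, *batf* was called higher at 7 mpt (0.684 CPM in *il11a*OE and 0.145 CPM in control, log2 fold change 2.22, edgeR adjusted p = 0.0412), as was *jdp2b* (6.81 CPM in *il11a*OE and 2.17 CPM in control, log2 fold change 1.65, edgeR adjusted p = 0.0287). *fosl1b*, the paralog of *fosl1a*, was not called at 7 dpt (0.39, edgeR adjusted p = 0.436) or 7 mpt (-0.70, edgeR adjusted p = 0.381).

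Immediate early genes other than AP-1 members did not share one direction at 7 dpt. Of 34 tested, 8 were higher and 8 lower at 7 dpt (23.5% each, near the 20.2% and 17.1% of all genes, median log2 fold change 0.06). At 7 mpt 8 were higher and 1 lower (23.5% and 2.94%, against 14.2% and 12.2% of all genes, median 0.34). One of the higher genes, *srfa* (0.538 CPM in *il11a*OE and 0.0773 CPM in control), passed the filter on low counts only with the help of *il11a*OE libraries. *nr4a3*, an orphan nuclear receptor gene, was lower by a wide margin at both times, with 14.99 CPM in *il11a*OE and 222 CPM in control at 7 dpt (log2 fold change -3.89, edgeR adjusted p = 0.000540) and 10.5 CPM in *il11a*OE and 123 CPM in control at 7 mpt (log2 fold change -3.55, edgeR adjusted p = 0.00826). *klf6a*, a zinc finger factor gene, was lower by 0.81 at 7 dpt (edgeR adjusted p = 0.000670). *ier5l* was higher by 1.91 at 7 dpt (edgeR adjusted p = 0.000234), *gadd45bb*, a gene of the growth arrest and DNA damage family, by 1.62 at 7 dpt and 1.37 at 7 mpt (edgeR adjusted p = 0.00130 and 0.00196), and *ccn2b*, a connective tissue growth factor gene, by 4.36 at 7 mpt (edgeR adjusted p = 0.000217). The list summed to 1562 to 1672 CPM in *il11a*OE against 1835 to 2078 CPM in control at 7 dpt, and to 2599 to 3276 CPM in *il11a*OE against 1712 to 3482 CPM in control at 7 mpt. The sums at 7 dpt include *nr4a3*, with 14.99 CPM in *il11a*OE and 222 CPM in control, so they do not stand for the list as a whole. The control maximum of the list at 7 mpt came from replicate 2, the library with the most *jun*, *jund* and *atf3*, and how dissection and handling bear on such genes was not tested.

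Upstream of AP-1, 28 MAP kinase pathway genes were tested at 7 dpt, with 6 higher and 3 lower (21.4% and 10.7%, against 20.2% and 17.1% of all genes), and 26 at 7 mpt, with 3 higher and 2 lower (11.5% and 7.69%, against 14.2% and 12.2% of all genes). These shares of higher genes are near those over all genes. The genes for p38 kinases were not a planned subset of the list, so their counts are a description only. Of 6 such genes, 4 were higher at 7 dpt and 3 at 7 mpt, and 0 lower. Over all genes, 20.2% were called higher at 7 dpt and 14.2% at 7 mpt. Among the higher p38 genes, *mapk12b* at 7 dpt (0.549 CPM in *il11a*OE and 0.0661 CPM in control) passed the filter on low counts only with the help of *il11a*OE libraries. Those named by rule were *mapk11* with 2.43 at 7 dpt (13.8 CPM in *il11a*OE and 2.56 CPM in control, edgeR adjusted p = 0.000139) and 2.92 at 7 mpt (edgeR adjusted p = 0.000191), *mapk14a* with 1.72 at 7 dpt (edgeR adjusted p = 0.000164) and *mapk12a* with 3.03 at 7 mpt (edgeR adjusted p = 0.000685). *mapk8b*, a JNK gene, was lower at 7 dpt (20.5 CPM in *il11a*OE and 38.1 CPM in control, log2 fold change -0.90, edgeR adjusted p = 0.000561), and *raf1a*, a kinase that feeds ERK, had -0.61 at 7 dpt (edgeR adjusted p = 0.00334) and -0.60 at 7 mpt (edgeR adjusted p = 0.0126). *map2k4b*, a kinase gene upstream of JNK, had -0.67 at 7 mpt (edgeR adjusted p = 0.0132). These are transcript levels and not kinase activities. Of 19 feedback and target genes of MAP kinases, not all of them specific to ERK, 2 were higher and 7 lower at 7 dpt (10.5% and 36.8%, against 20.2% and 17.1% of all genes, median -0.37). The 7 lower genes were *etv4*, *spry4*, *dusp4* (log2 fold change -0.95), *dusp8a* (-1.20), *dusp10* (-1.29), *dusp16* (-0.50) and *spred2a* (-0.605). Of these, *dusp8a*, *dusp10* and *dusp16* are phosphatase genes that are not specific to ERK. At 7 mpt 1 was higher and 3 lower (5.26% and 15.8%, against 14.2% and 12.2% of all genes, median -0.18). *etv4*, an ETS factor gene induced by ERK, had -1.62 at 7 dpt (edgeR adjusted p = 0.00203), and *spry4*, an inhibitor of receptor signalling, -1.43 (edgeR adjusted p = 0.00200), while *spred2b* had 0.55 (edgeR adjusted p = 0.0154) and the scarce *dusp14* 1.12 (edgeR adjusted p = 0.0453). *dusp1*, a MAP kinase phosphatase gene, was higher at 7 mpt (161 CPM in *il11a*OE and 79.2 CPM in control, log2 fold change 1.02, edgeR adjusted p = 0.0100), while *dusp4* (log2 fold change -1.25, edgeR adjusted p = 0.00898) and *spred2a*, an inhibitor of the Ras to ERK route, were lower (log2 fold change -1.23, edgeR adjusted p = 0.00408).

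Downstream, genes known, mostly in mammals, to respond to AP-1 moved in both directions. Of 23 tested at 7 dpt, 9 were higher and 5 lower (39.1% and 21.7%, against 20.2% and 17.1% of all genes, median log2 fold change 0.52). Of 25 tested at 7 mpt, 12 were higher and 4 lower (48.0% and 16.0%, against 14.2% and 12.2% of all genes, median 1.52). The list holds *il11a* itself, so 1 of the higher calls at each time is the induced gene. It also holds *lepb*, which the paper names as upregulated in *il11a*OE hearts. *lepb* was called higher at 7 dpt (0.925 CPM in *il11a*OE and 0 CPM in control) and at 7 mpt (12.8 CPM in *il11a*OE and 0.0224 CPM in control). Its mean control CPM was below the minimum of the filter on low counts at both times. So was that of the higher genes *mmp13b* (0.0495 CPM in control) and *cxcl8a* (0.0332 CPM in control) at 7 mpt. These genes passed the filter only with the help of *il11a*OE libraries, which favours a higher value. The list was chosen with earlier results of these data known, so its shares are a description only. *timp2b*, an inhibitor of matrix proteases, was higher by 2.74 at 7 dpt (49.7 CPM in *il11a*OE and 7.45 CPM in control, edgeR adjusted p = 0.000931) and by 4.77 at 7 mpt (198 CPM in *il11a*OE and 7.27 CPM in control, edgeR adjusted p = 6.92e-05). *mmp14b*, a membrane-bound matrix protease gene, was higher by 3.71 at 7 mpt (235 CPM in *il11a*OE and 17.9 CPM in control, edgeR adjusted p = 0.000156). *gclm*, a gene of glutathione synthesis, had -0.98 at both times (edgeR adjusted p = 0.000637 at 7 dpt and 0.00587 at 7 mpt), *hbegfa*, a growth factor gene, -0.79 at 7 dpt (edgeR adjusted p = 0.00251) and *nqo1*, an antioxidant enzyme gene, -1.49 at 7 mpt (edgeR adjusted p = 0.00119). Many of these genes have other regulators too, and whether AP-1 binds near them was not measured.

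Markers of several cell types differed between the groups too, in both directions. Over all genes tested, 20.2% were called higher and 17.1% lower at 7 dpt, and 14.2% and 12.2% at 7 mpt. The share of endothelial markers called higher, 16.7% at both times, is near these shares. All 12 macrophage markers tested were higher at 7 dpt, with a summed level of 647 to 788 CPM in *il11a*OE against 246 to 309 CPM in control, and 10 of 12 were higher at 7 mpt, with 1032 to 1238 CPM in *il11a*OE against 143 to 265 CPM in control. Of the lymphoid markers, 7 of 9 were higher at 7 dpt (26.9 to 40.8 CPM in *il11a*OE against 10.6 to 13.8 CPM in control) and 8 of 10 at 7 mpt (57.2 to 79.9 CPM in *il11a*OE against 9.30 to 19.7 CPM in control). Fibroblast markers were higher in 2 and lower in 1 of 8 at 7 dpt, the lower one being *lum* (log2 fold change -1.19, edgeR adjusted p = 0.00633). At 7 mpt 8 of 8 fibroblast markers were higher, with 3437 to 7115 CPM in *il11a*OE against 636 to 1061 CPM in control. Neutrophil markers were higher in 1 of 2 tested at 7 dpt and 1 of 4 at 7 mpt, where they summed to 56.3 to 788 CPM in *il11a*OE against 1.79 to 140 CPM in control. The one called at 7 mpt was *cxcr1* (0.657 CPM in *il11a*OE and 0.0696 CPM in control). Like *csf1rb* and *cd79a* at 7 mpt and *cd79a* and *cd79b* at 7 dpt, it had a mean control CPM below the minimum of the filter on low counts. These higher calls passed the filter only with the help of *il11a*OE libraries, which favours a higher value. Cardiomyocyte markers were lower in 6 of 8 at both times, with 31560 to 37940 CPM in *il11a*OE against 52580 to 61160 CPM in control at 7 dpt. In the same list *tnni1b* was higher at 7 dpt (3067 CPM in *il11a*OE and 1711 CPM in control, log2 fold change 0.84, edgeR adjusted p = 0.00240). Erythroid markers were lower in 4 of 5 at 7 dpt, with 863 to 1417 CPM in *il11a*OE against 1758 to 4009 CPM in control, and were called in 0 of 5 at 7 mpt. Endothelial markers were higher in 1 and lower in 2 of 6 at 7 dpt and higher in 1 and lower in 5 of 6 at 7 mpt, with 489 to 655 CPM in *il11a*OE against 693 to 818 CPM in control at 7 mpt. Epicardial markers were higher in 2 and lower in 2 of 7 at 7 dpt and higher in 3 of 7 at 7 mpt. Liver markers summed to 858 to 2560 CPM in *il11a*OE against 20.7 to 115 CPM in control at 7 mpt, with 2 of 7 tested called higher and 1 lower. Most of this sum was *tfa*, with 1300 CPM in *il11a*OE and 44.9 CPM in control, while *ahsg1* was lower (0.557 CPM in *il11a*OE and 2.11 CPM in control, log2 fold change -1.92, edgeR adjusted p = 0.00497). In none of these lists was a matched marker at 0 counts in all libraries. Heat shock genes, some of which handling can induce, were higher in 1, *hspa5*, and lower in 7 of 12 at 7 dpt. The lower genes included *hsp70l* (7.19 CPM in *il11a*OE and 22.4 CPM in control), *hsp70.1* and *hsp70.3*. Their sum was 4171 to 5272 CPM in *il11a*OE against 3678 to 4180 CPM in control. Most of this heat shock sum was *hspa8* (2132 CPM in *il11a*OE and 1815 CPM in control) and *hspb1* (2126 CPM in *il11a*OE and 1615 CPM in control), which were not called. At 7 mpt they were higher in 1 and lower in 2 of 12, with 3835 to 5541 CPM in *il11a*OE against 3759 to 6508 CPM in control. The part of these cell types and of handling in the AP-1 differences was not tested.

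The genes whose pattern over the 14 libraries was nearest to each member, by the root mean square distance of centred log2 CPM among 17933 genes, are given as a description. Nearest to *fosl2* were *cd74b* and *abcc4*, both at a distance of 0.27, and *mhc2daa* at 0.33, and *cd74b* and *mhc2daa* are genes of MHC class II antigen presentation. Nearest to *junba* were the complement gene *c6* at 0.35, *socs3b*, an inhibitor of cytokine signalling, at 0.39, and a gene the reference table names *SORCS3* at 0.41. *SORCS3* was also among the nearest to *fosl1a*, at 0.43, where *si:ch211-283g2.2* was first at 0.39. Nearest to *atf3* were *otud1* at 0.70, the member *jund* at 0.80 and *mitfb* at 0.81, wider distances that go with the spread of *atf3* among control libraries. The first in rank was *abcc10* at 0.27 for *jun*, *si:ch73-281i18.4* at 0.27 for *jund*, *nkl.2* at 0.57 for *fosab* and *scdb* at 0.77 for *fosb*. For *junbb* it was *rgs7bpb* at 0.26, followed by *tom1* at 0.30. For *batf3* it was *si:dkey-42i9.7* at 0.66, followed by *skap1*, a gene of T cell adhesion, at 0.72.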

How the data were processed

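RNA was taken from pools of uninjured hearts, and the paper's methods state 3 pools per group, while the labels give 4 libraries per group at 7 mpt, all of which were used. The authors trimmed adaptors, aligned reads to GRCz11 with HISAT2 and counted them on Ensembl 104 exons with featureCounts 2.0.0, without strand and without reads of several places or genes. The deposited values are raw counts, of read pairs at 7 dpt and of single mates at 7 mpt, which raises counts without adding molecules. Exon lengths stand beside them and gave RPKM.

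From the deposited counts, genes were filtered with filterByExpr, library sizes scaled with TMM, and groups compared with edgeR's robust quasi-likelihood test within each time point (R 4.3.3, edgeR 4.0.16, limma 3.58.1), with Benjamini-Hochberg adjustment over all 19647 genes at 7 dpt and 18689 at 7 mpt. Effects were compared between time points over all 14 libraries and 21317 genes. Pattern distances used log2 CPM with a prior count of 1. The main fits and some of the alternatives were first run on simulated counts in which the changed genes were known. The joint fit read at 7 dpt, the other count filters, the halved counts and the fits with a library left out were not simulated.

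Names came from the supplements, the reference table and RefSeq, for 29399 of 32520 identifiers. The members and gene lists were chosen with earlier results of these data known. Named genes are all members, *il11a*, for each pathway list and time point the 2 called genes of smallest p in each direction, and up to 3 nearest patterns per member. Some further genes of the lists are named to complete a count or to give a limit. The alternatives were DESeq2 1.42.0, its size factors in edgeR, and other count filters (1 count in any library, or 10 in every library). A replicate block, all libraries in one fit and the letter as covariate were further alternatives. So were the effect within each letter, read from one fit of the 7 mpt libraries, counts of 7 mpt halved, and each library left out. The comparison of F with M was added after seeing the data. Replicate libraries differed by far more than sampling noise (chi-square per degree of freedom of 52.9 or more), and all were kept.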

Additional observations from a re-analysis of the deposited data

Results flagged for a closer look

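In groups of 4, a library was picked out where its gap to the nearest other library was above Dixon's 95% critical value as a share of the group's range. Among 20 groups of members at 7 mpt, 3 had such a library. The critical value picks out about 1 in 20 groups where groups are independent and their values normal. Members share the same libraries and normality of CPM was not tested, so the 3 cannot be set against that rate. *fosab* reached 131 CPM in *il11a*OE replicate 1, against 30.6 to 38.4 CPM in the other 3 *il11a*OE libraries (gap 0.922 of the range). *junbb* reached 85.1 CPM in the same library, against 46.1 to 51.3 CPM in the other 3 (0.866). *atf3* reached 751 CPM in control replicate 2, against 21.1 to 89.9 CPM in the other control libraries (0.906). *il11a*OE replicate 1 was the highest *il11a*OE library for 8 of 10 members and control replicate 2 the highest control library for 6 of 10, and both are F libraries. How often these libraries were the highest over all genes was not computed, so these counts are a description only.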

How the results depend on the processing

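The 4 and 3 members called higher and lower at 7 dpt became 4 and 0 with all 14 libraries in one fit. With each library left out, the higher count ran from 3 to 4 at 7 dpt and from 4 to 5 at 7 mpt, and the lower count stayed at 3 and 0. The other alternatives gave 4 higher and 3 lower at 7 dpt, 4 to 5 higher and 0 lower at 7 mpt, and 0 and 0 for the difference of the time points. At 7 mpt *fosab* was lost without a filter beyond 1 count (edgeR adjusted p = 0.0752) and *fosl1a* within the F libraries. Signs turned only in values that were not called. At 7 mpt *jun* was -0.13 and *batf3* -0.058 within F, *jund* 0.42 and *atf3* 1.24 within M, and with 1 library left out the range was -0.64 to 0.30 for *jund*, -1.52 to 1.05 for *atf3* and -0.31 to 1.99 for *fosb*. At 7 dpt *jun* ran from -0.295 to 0.025. The difference of the time points ran over fits with 1 library left out from -0.25 to 0.45 for *fosl1a*, from -0.17 to 0.82 for *junba* and from -1.28 to 0.47 for *batf3*. The cause of these changes was not tested. Halving the 7 mpt counts changed no call.

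Replicate numbers were not used as pairs in the main fits. Deviations of same-numbered libraries correlated at 0.005, -0.02 and 0.17 at 7 dpt and between -0.05 and 0.06 at 7 mpt. Libraries of different numbers correlated between -0.10 and 0.09 at 7 dpt and between -0.13 and 0.16 at 7 mpt. With so few libraries, these values cannot decide whether the numbers pair the samples. With the replicate block, 4 members were higher and 3 lower at 7 dpt and 5 higher at 7 mpt, *atf3* at 7 mpt turned to 0.16, and the *batf3* difference of the time points turned to 0.17.

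Depth limits *batf3* and *fosb*, which could not be tested at 7 mpt, nor *batf3* at 7 dpt, with 10 counts required in every library. With 3 or 4 libraries per group, intervals at 7 mpt were up to several log2 units wide.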
